A study of Mus musculus with 6 samples.

Results

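The 9 genes examined here encode transcription factors tied to the commitment of odontoblasts, which make dentin, and osteoblasts, which make bone. They were taken by name from the 23718 genes of the table: the RUNX genes Runx1, Runx2 and Runx3, the zinc finger gene Sp7, the nuclear factor I (NFI) genes Nfia, Nfib, Nfic and Nfix, and the zinc finger gene Klf4. All 9 were listed and all 9 were tested. RNA was sequenced from incisors of mice aged 1 month, labelled C57BL/6 and of mixed background by the methods. The 3 mesenchymal stem cell (MSC) samples were laser-captured Gli1+ cells of Gli1-CreER;tdT mice, and the 3 transit amplifying cell (TAC) samples were laser-captured Axin2+ cells of Axin2-CreER;tdT mice. In both genotypes a tamoxifen-inducible Cre, driven by Gli1 or by Axin2, switches on the tdT fluorescent reporter, and tissue was taken the day after tamoxifen. The groups therefore differ in driver as well as in region, and the 2 cannot be told apart. By the methods each group had 3 mice, but whether each library came from a separate mouse is not given, so p-values measure the spread between these samples, which may in part be technical.

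RUNX proteins bind DNA as partners of the shared subunit CBFB. RUNX2 starts the osteoblast program and is needed early in tooth formation, and SP7 acts downstream of it. RUNX1 and RUNX3 are best known from blood cells, and both are also found in skeletal and epithelial tissue. The NFI proteins bind DNA as dimers with each other, and loss of NFIC in mice leaves teeth with short roots and abnormal odontoblasts. KLF4 is a factor of differentiating epithelium and of vessel walls and has also been tied to odontoblast differentiation.

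The libraries were uneven. Estimated reads per library ranged from 20203159 to 108156380, with replicate 3 the deepest in both groups. Mitochondrial ribosomal RNA took 8.28% to 9.07% of reads in replicates 1 and 2 of both groups, against 0.236% and 0.112% in replicate 3 of MSC and TAC. No read was seen for 6.89% to 8.36% of genes in replicates 1 and 2, for 43.1% in MSC replicate 3 and for 28.3% in TAC replicate 3. Replicate 3 is therefore set beside replicates 1 and 2 for the factors. All 10 dental mesenchyme markers examined had reads in all 6 libraries.

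The distal promoters of the 3 RUNX genes are shown first, because the motif bound by the family's own proteins recurs in them. Each window runs from 250 bases before to 50 bases after a RefSeq start site on GRCm38.p6. Capitals mark the RUNX core motif, searched as TGTGGT and TGCGGT on both strands, so that ACCACA is TGTGGT read on the other strand. The windows are chr16:92826025-92826324 on the minus strand for Runx1, chr17:44814578-44814877 on the minus strand for Runx2 and chr4:135120395-135120694 on the plus strand for Runx3, each written 5′ to 3′ along its gene.
Runx1: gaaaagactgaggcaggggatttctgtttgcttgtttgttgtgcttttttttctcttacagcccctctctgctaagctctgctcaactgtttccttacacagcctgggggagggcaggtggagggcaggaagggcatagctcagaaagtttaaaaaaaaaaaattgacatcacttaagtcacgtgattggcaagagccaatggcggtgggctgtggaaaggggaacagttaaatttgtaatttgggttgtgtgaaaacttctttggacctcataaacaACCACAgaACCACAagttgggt
Runx2: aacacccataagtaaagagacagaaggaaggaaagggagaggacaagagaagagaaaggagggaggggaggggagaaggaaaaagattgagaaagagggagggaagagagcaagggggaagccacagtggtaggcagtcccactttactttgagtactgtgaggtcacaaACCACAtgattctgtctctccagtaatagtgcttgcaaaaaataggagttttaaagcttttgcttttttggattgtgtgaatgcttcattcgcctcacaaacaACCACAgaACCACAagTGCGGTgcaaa
Runx3: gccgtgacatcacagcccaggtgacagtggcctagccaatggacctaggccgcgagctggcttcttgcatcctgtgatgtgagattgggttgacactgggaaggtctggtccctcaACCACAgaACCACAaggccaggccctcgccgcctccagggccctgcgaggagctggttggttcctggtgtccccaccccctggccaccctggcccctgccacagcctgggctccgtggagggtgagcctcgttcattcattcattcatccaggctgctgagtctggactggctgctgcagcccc

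Each of the 3 windows held ACCACA as a close pair separated by the letters ga. In Runx1 the pair began 28 and 36 bases after the start site, and in Runx2 it began 23 and 31 bases after it. In Runx2 a TGCGGT followed at 39 bases, and a further ACCACA lay at position -80, before the start site. In Runx3 the pair lay before the start site, at positions -134 and -126. At least 1 core motif occurred in 22.4% of all 32851 RefSeq windows of this length. The pair, searched as ACCACA, any 2 bases and ACCACA again on both strands and defined after it had been seen, occurred in 7 windows, or 0.0213%, of which 3 were these and 1 other overlapped the Runx3 window. Nfix was the fourth factor with a core motif, with 1 in each of 3 of its windows. The proximal windows of Runx1 and Runx3 held no core motif. In all, RefSeq gave 12 windows for 7 of the 9 factors, and none of the 12 held the full NFI palindrome, searched as TTGGC and GCCAA with any 5 bases between them, which occurred in 12 windows, or 0.0365%, of all. The GC box GGGCGG, present in 35.7% of all windows, was searched on both strands and occurred 4 times in the window of Nfic and 4 times in that of Klf4. A match of letters says nothing of binding, and the deposited values sum all transcripts of a gene, so distal and proximal promoter use cannot be told apart here.

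**Figure D1:**
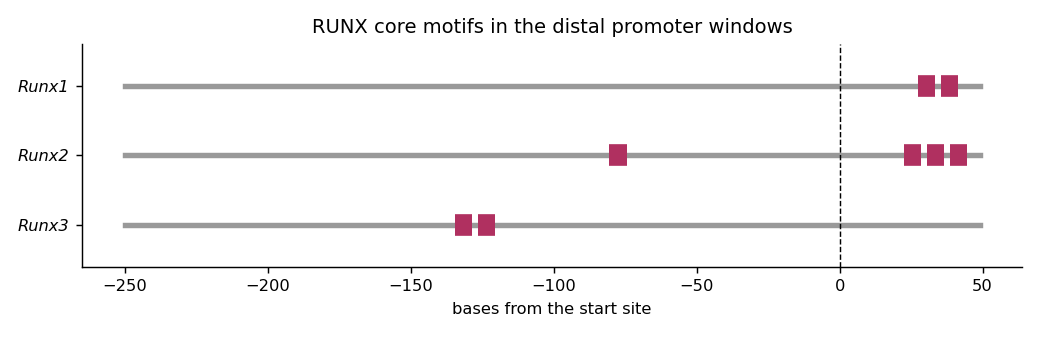
Positions of RUNX core motifs (red blocks) in the distal promoter windows (grey lines) of Runx1, Runx2 and Runx3, in bases from the start site (dashed line). Each window holds a close pair, after the start site in Runx1 and Runx2 and before it in Runx3, and Runx2 holds 4 motifs in all.

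The comparison of TAC with MSC asks which of these factors differ between tissue captured as stem cells and tissue captured as their dividing progeny. None of the 9 passed an adjusted p of 0.05 in limma, and 1, Nfia, had an unadjusted p under 0.05. Over all 15391 genes tested, 0.422% passed the adjusted threshold (0.383% higher in MSC and 0.0390% higher in TAC), and 11.9% had an unadjusted p under 0.05 (6.43% and 5.42%), so the factors did not stand out by number. Nfia was also the 1 factor of 9 whose groups did not overlap, against 24.5% of all genes (12.2% with MSC above TAC and 12.3% the reverse). Nfia, Nfib and Nfix were lower in TAC than in the MSC library of the same number in 3 of 3 numbers, against 26.4% of all genes, and Nfic was higher in 3 of 3, against 24.6%. With the replicate number as a block, 4 factors had an unadjusted p under 0.05, against 20.4% of all genes (10.9% with MSC above TAC and 9.43% the reverse), and 0 passed the adjusted threshold, against 1.49% (0.884% and 0.604%). Those 4 were the NFI genes, with Nfia, Nfib and Nfix higher in MSC and Nfic higher in TAC, and their adjusted p-values under the block ran from 0.0674 to 0.229. Crossed pairs of numbers 1 and 2 correlated about as well as matched ones, so the number mainly separates replicate 3 from the others.

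**Figure D2:**
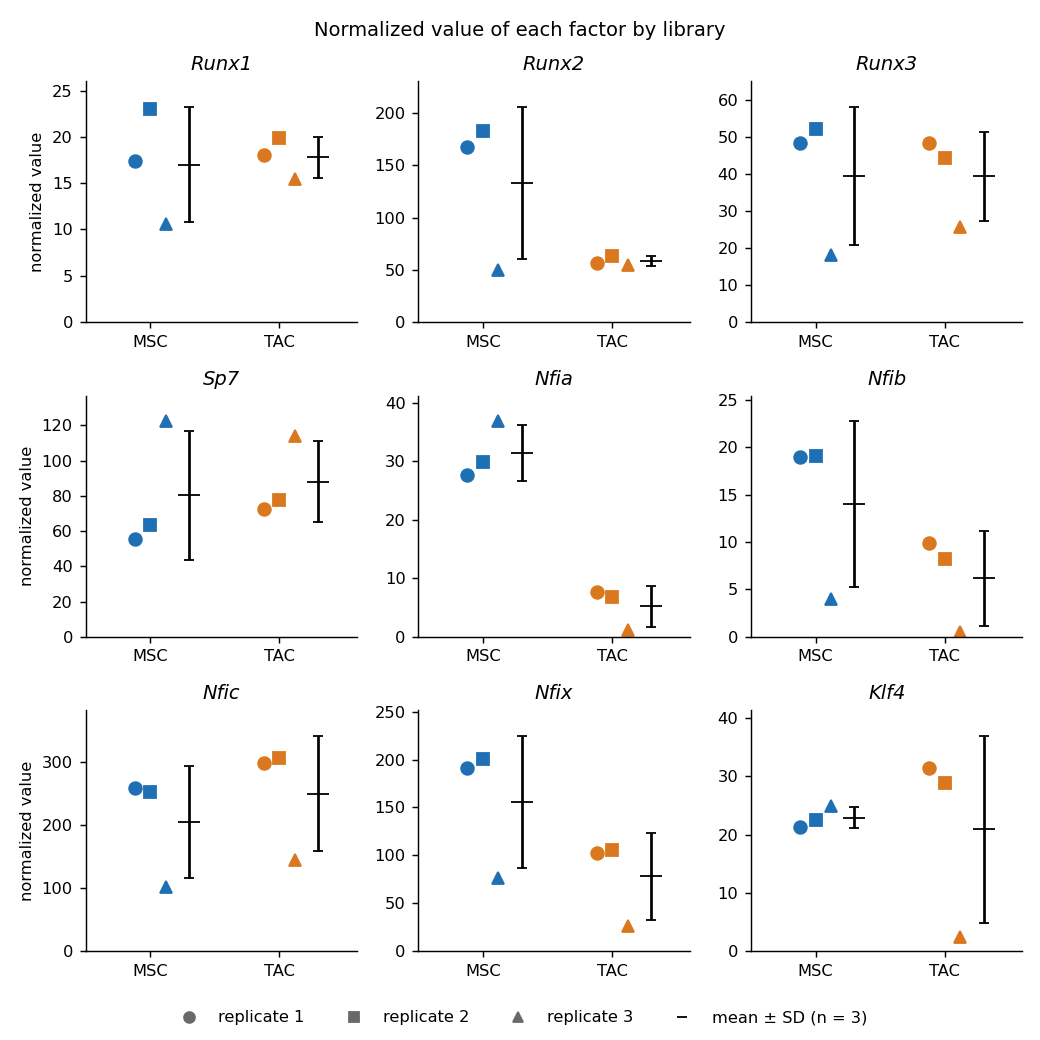
Normalized value (y axis, a read number scaled per library and not divided by gene length) of each factor in the MSC (blue) and TAC (orange) libraries, with the mean and SD of 3 libraries beside them. Nfia is the factor whose groups do not overlap, and replicate 3 (triangles) lies apart from replicates 1 and 2 for most factors.

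Nfia had the largest fold change of the 9 factors. Values are given for replicates 1, 2 and 3 in that order. Nfia (chromosome 4, plus strand, 97772734 to 98118874) measured 27.6, 29.9 and 36.8 across MSC against 7.60, 6.79 and 1.11 across TAC. Every TAC library lay below every MSC library. The mean was 31.4 ± 4.77 (SD, n = 3) for MSC against 5.16 ± 3.54 (SD, n = 3) for TAC, a ratio of 6.09. Its log2 fold change, TAC minus MSC on the log2(value + 1) scale, was -2.63 with an SE of 0.59 (95% confidence interval -4.02 to -1.24, limma p 0.00273, adjusted p 0.147). Over 17 alternative fits the unadjusted p was under 0.05 in 17, the log2 fold change ran from -3.01 to -1.86 and the adjusted p from 1.25e-05 to 0.722. A further fit, run and then dropped, gave a more negative log2 fold change. The MSC value was 3.63, 4.41 and 33.2 times the TAC value at replicate numbers 1, 2 and 3.

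Nfix (chromosome 8, minus strand, 84699876 to 84800344) measured 191, 200.1 and 76.8 across MSC against 103, 106 and 26.1 across TAC. MSC replicate 3 lay below TAC replicates 1 and 2, so the groups overlapped, although the MSC value was 1.85, 1.89 and 2.94 times that of TAC at the 3 replicate numbers. The log2 fold change of Nfix was -1.11 (SE 0.63, 95% confidence interval -2.58 to 0.37, adjusted p 0.558). Nfib (chromosome 4, minus strand, 82290173 to 82705750) had the lowest mean of the family per kilobase of exon in both groups, and its normalized value was 19.0, 19.1 and 3.94 across MSC against 9.92, 8.18 and 0.463 across TAC, the last from 121 estimated reads. Its log2 fold change was -1.25 (SE 0.94, 95% confidence interval -3.45 to 0.94, adjusted p 0.669). The log2 fold change of both genes was negative in 17 of 17 alternatives, but its size rested in part on TAC replicate 3, without which it was -0.33 for Nfib and -0.45 for Nfix. Without MSC replicate 3 it was -1.93 for Nfib and -1.55 for Nfix.

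Nfic (chromosome 10, minus strand, 81396186 to 81455635), the member with the known tooth root phenotype, differed by less than the spread between libraries. It measured 260, 253 and 102 across MSC against 299, 308 and 145 across TAC, and the spread between replicate 3 and the others was wider than the difference between groups. The TAC value was 1.15, 1.22 and 1.42 times the MSC value at the 3 replicate numbers. The log2 fold change of Nfic was 0.33 (SE 0.49, 95% confidence interval -0.83 to 1.48, adjusted p 0.866), and it turned to -0.11 without MSC replicate 3.

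Because these 4 genes were read in the same libraries, ratios of their normalized values do not depend on the scaling of a library. The ratio of Nfic to Nfix measured 1.36, 1.26 and 1.33 across MSC against 2.90, 2.90 and 5.54 across TAC. It was nearly constant over the 3 MSC libraries, replicate 3 included, and the groups did not overlap. The ratio of Nfic to Nfia measured 9.42, 8.45 and 2.78 across MSC against 39.3, 45.3 and 130.6 across TAC, again without overlap. When each value was divided by the length of the gene's exons, Nfic made up 54.7% ± 2.33 (SD, n = 3) of the NFI total in MSC against 78.3% ± 6.25 (SD, n = 3) for TAC. The share of Nfix was 37.4% ± 1.91 (SD, n = 3) for MSC against 20.1% ± 5.36 (SD, n = 3) for TAC, and that of Nfia was 6.36% ± 4.41 (SD, n = 3) and 0.853% ± 0.401 (SD, n = 3). The shares of Nfic, Nfix and Nfia did not overlap between the groups, while those of Nfib did, at 0.893% to 1.84% in MSC and 0.121% to 1.10% in TAC. Shares of a common total depend on each other, so these are not separate results, and the value of Nfic itself overlapped between the groups. The summed NFI value per kilobase overlapped, at 29.5 to 69.4 in MSC and 25.5 to 61.97 in TAC. Among single genes 24.5% did not overlap, and no such share was computed for ratios or shares within a family, so these counts have no background of their own. These ratios and shares were looked at after the values were known and are a description, with no test.

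**Figure D3:**
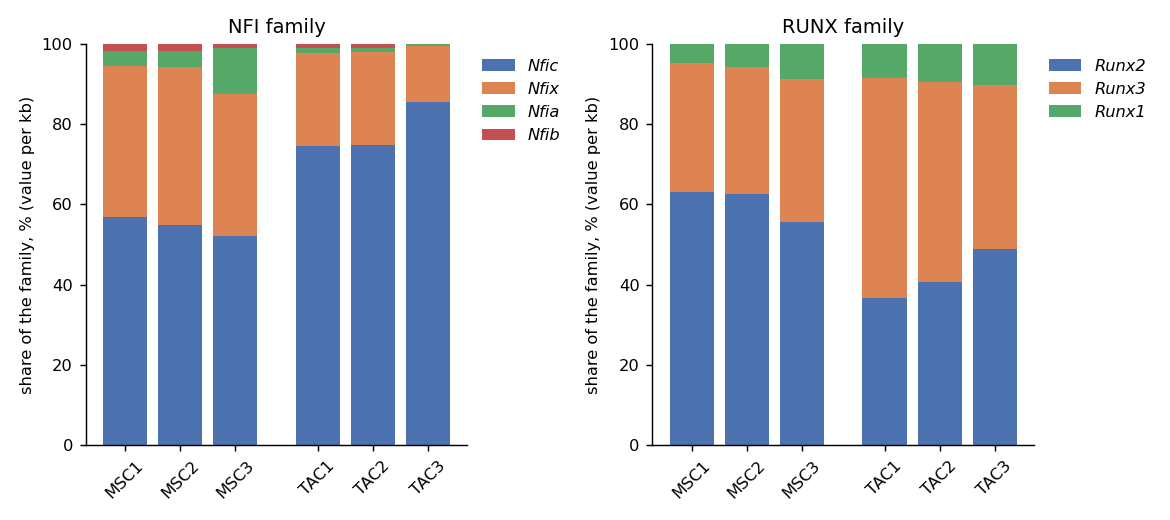
Share of each gene in its family's total (y axis, percent, from normalized values per kilobase of exon) in each of the 6 libraries, for the NFI family on the left and the RUNX family on the right. Nfic takes 52.2% to 56.9% of the NFI total in MSC and 74.6% to 85.5% in TAC, and Runx2 takes 55.5% to 63.1% of the RUNX total in MSC and 36.6% to 48.99% in TAC.

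Among the RUNX genes Runx2 had the largest fold change, which did not pass the test. Runx2 (chromosome 17, minus strand, 44495987 to 44814797) measured 168, 182 and 49.7 across MSC against 56.9, 63.6 and 54.4 across TAC. The TAC libraries were close together, and MSC replicate 3 lay just below all of them. The log2 fold change of Runx2 was -0.97 (SE 0.50, 95% confidence interval -2.15 to 0.21, limma adjusted p 0.510). Replicates 1 and 2 gave -1.52 and replicate 3 gave 0.13. Leaving out MSC replicate 3 gave -1.57 and an adjusted p of 0.0374, so that 1 library decided the call. Leaving out MSC replicate 1 or 2 gave -0.70 and -0.64, with adjusted p-values of 0.690 and 0.704. On the opposite strand, Runx2os1 shares 519 exon bases with Runx2 and was at most 3.98 in any library, far under the Runx2 values.

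Runx3 (chromosome 4, plus strand, 135120652 to 135177990) measured 48.3, 52.2 and 18.1 across MSC against 48.3, 44.2 and 25.7 across TAC. Its log2 fold change was 0.08 (SE 0.47, 95% confidence interval -1.03 to 1.19, adjusted p 0.975). Runx1 (chromosome 16, minus strand, 92601466 to 92826149) measured 17.4, 23.1 and 10.6 across MSC against 18.1, 19.9 and 15.4 across TAC (log2 fold change 0.12, SE 0.38, 95% confidence interval -0.77 to 1.00, adjusted p 0.949). For both genes replicate 3 was the lowest library of its group and the groups overlapped, and the intervals leave room for a change of about 1 on the log2 scale either way.

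Of the 3 ratios within the RUNX family, the 2 that involve Runx2 did not overlap between the groups. The ratio of Runx2 to Runx3 measured 3.47, 3.49 and 2.74 across MSC against 1.18, 1.44 and 2.12 across TAC. The ratio of Runx2 to Runx1 measured 9.65, 7.91 and 4.68 across MSC against 3.15, 3.20 and 3.53 across TAC. For both the gap was narrower in replicate 3. The ratio of Runx3 to Runx1 was 1.71 to 2.78 for MSC and 1.66 to 2.67 for TAC, with overlapping groups. Per kilobase of exon, Runx2 made up 60.4% ± 4.23 (SD, n = 3) of the RUNX total in MSC against 42.1% ± 6.31 (SD, n = 3) for TAC, and Runx3 33.2% ± 2.26 (SD, n = 3) and 48.5% ± 7.13 (SD, n = 3). The share of Runx1 overlapped, at 4.81% to 8.72% for MSC and 8.54% to 10.2% for TAC. In TAC replicates 1 and 2 Runx3 thus exceeded Runx2, while in TAC replicate 3 it did not, at 40.8% against 48.99%. As for the NFI family, these shares depend on each other and are a description.

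Sp7 (chromosome 15, minus strand, 102356609 to 102366325), the factor downstream of RUNX2, measured 55.3, 63.3 and 122 across MSC against 72.5, 77.6 and 114 across TAC. Unlike the RUNX genes it was highest in replicate 3 of both groups. The log2 fold change of Sp7 was 0.19 (SE 0.38, 95% confidence interval -0.69 to 1.08, adjusted p 0.904). Replicates 1 and 2 gave 0.34 and replicate 3 gave -0.10. The ratio of Sp7 to Runx2 measured 0.330, 0.347 and 2.46 across MSC against 1.27, 1.22 and 2.10 across TAC, so here the groups overlapped through MSC replicate 3.

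Klf4 (chromosome 4, minus strand, 55527143 to 55532466) measured 21.3, 22.5 and 24.9 across MSC against 31.4, 28.8 and 2.48 across TAC. Relative to the mean, the MSC libraries were the closest of any factor, and TAC replicate 3 stood alone at the bottom, with 654 estimated reads. The log2 fold change of Klf4 was -0.67 (SE 0.83, 95% confidence interval -2.62 to 1.28, adjusted p 0.821). Replicates 1 and 2 gave 0.44 and replicate 3 gave -2.89. Without TAC replicate 3 the value was 0.38, so the direction rested on that library.

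The change between TAC and MSC was compared between the library sets directly. The difference passed an adjusted p of 0.05 for 7 of the 9 factors, against 57.2% of all genes, in a test whose error is the spread between replicates 1 and 2. It missed the threshold for Runx1 (adjusted p 0.105) and Nfib (adjusted p 0.0781). The 4 NFI genes had the same sign in both sets, a property of 61.2% of all genes, and the other 5 factors had opposite signs. In replicates 1 and 2 alone, 7 of 9 passed the adjusted threshold, against 44.2% of all genes. Of these, Runx2, Nfia, Nfib and Nfix were higher in MSC, and Sp7, Nfic and Klf4 were higher in TAC. With the library set as a batch term 3 passed, Nfia (adjusted p 0.0280), Nfib (0.0477) and Nfix (0.0122), each higher in MSC, as were 6.56% of all genes. That fit counts replicates 1 and 2 as separate samples. With those 2 averaged into 1 sample per group none of the 3 passed, at adjusted p-values of 0.722 for Nfia and 0.99997 for Nfib and Nfix, nor did they with the replicate block, at 0.102, 0.165 and 0.0674.

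**Figure D4:**
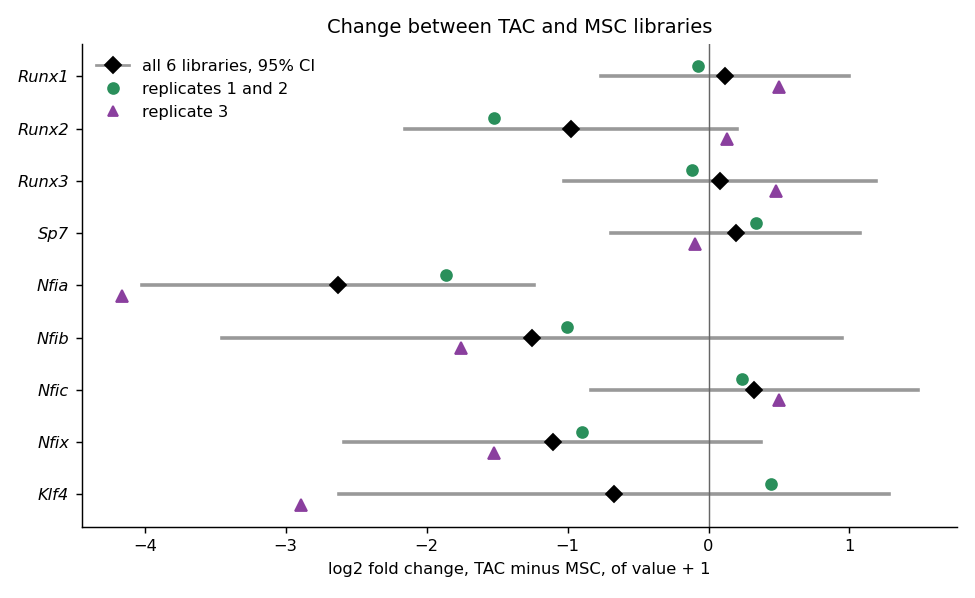
Log2 fold change of each factor, TAC minus MSC, of the normalized value plus 1 (x axis), from all 6 libraries with the 95% confidence interval (diamonds and grey lines), from replicates 1 and 2 (circles) and from replicate 3 (triangles). The interval leaves out 0 only for Nfia, and circles and triangles lie on the same side of 0 for the 4 NFI genes.

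Levels can be ranked between genes only per kilobase of exon. On that scale Nfic had the highest mean in both groups, at 30.9 ± 13.5 (SD, n = 3) for MSC against 37.8 ± 13.8 (SD, n = 3) for TAC. Sp7 followed with 23.6 ± 10.8 (SD, n = 3) and 25.9 ± 6.71 (SD, n = 3), then Nfix with 21.2 ± 9.34 (SD, n = 3) and 10.7 ± 6.15 (SD, n = 3). Runx2 came next in MSC, at 15.1 ± 8.22 (SD, n = 3), and below Runx3 and Klf4 in TAC, at 6.60 ± 0.535 (SD, n = 3). Runx3 was at 7.90 ± 3.72 (SD, n = 3) and 7.87 ± 2.41 (SD, n = 3), and Klf4 at 7.51 ± 0.590 (SD, n = 3) and 6.86 ± 5.25 (SD, n = 3). The order was not the same in all libraries. Nfic was above Sp7 in replicates 1 and 2 of both groups, but in replicate 3 Sp7 was above Nfic, at 35.99 against 15.4 in MSC and 33.6 against 21.8 in TAC. In MSC replicates 1 and 2 Sp7, at 16.3 and 18.6, was below both Nfix, at 25.9 and 27.2, and Runx2, at 18.95 and 20.6, so that its place by the MSC mean rested on replicate 3. In TAC replicates 1 and 2 Klf4, at 10.3 and 9.46, was above Runx3, at 9.65 and 8.84. In TAC replicate 3 Runx2, at 6.16, was above Runx3, at 5.13, and Klf4, at 0.814. Neighbours in the order of means among these 6 genes differed by less than the sum of their SDs, apart from Sp7 and Nfix in TAC. Nfia, Runx1 and Nfib were the lowest, with means of 2.89, 1.42 and 0.937 in MSC and 0.474, 1.48 and 0.414 in TAC.

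Related genes were examined in 5 lists with 74 tested members, of which 0 passed the adjusted threshold in limma and 16 had an unadjusted p under 0.05, against 0.422% and 11.9% of all genes. Of 15 RUNX cofactors, 4 had an unadjusted p under 0.05, all higher in MSC, against 6.43% of all genes. They were the corepressors Tle1 (log2 fold change -1.32, SE 0.28, adjusted p 0.127) and Tle2 (-0.95, SE 0.36, adjusted p 0.355), and the histone deacetylases Hdac5 (-1.07, adjusted p 0.257) and Hdac7 (-0.85, adjusted p 0.288). Tle1 measured 33.8, 34.9 and 43.3 across MSC against 13.99, 14.96 and 13.9 across TAC. The RUNX partner Cbfb measured 34.9, 30.1 and 52.1 across MSC against 55.4, 56.1 and 37.5 across TAC, with overlapping groups (log2 fold change 0.36, adjusted p 0.724). The median of the cofactor list was -0.13, against 0.026 for all genes tested, while replicates 1 and 2 gave -0.30 and replicate 3 gave -0.31.

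Of 22 other osteogenic and odontogenic transcription factors, 3 were higher in MSC and 2 higher in TAC at an unadjusted p under 0.05, against 6.43% and 5.42% of all genes. The list median was -0.15, and it turned sign between -0.13 in replicates 1 and 2 and 0.098 in replicate 3. The homeobox gene Msx2 measured 43.6, 44.3 and 26.9 across MSC against 109, 107 and 104 across TAC (log2 fold change 1.49, SE 0.29, adjusted p 0.106). Dlx5, a homeobox gene that acts on Runx2 and Sp7 in bone, measured 86.4, 86.6 and 109 across MSC against 162, 159 and 196 across TAC, at 0.87 (SE 0.26, adjusted p 0.254). All TAC libraries lay above all MSC libraries for both. Cebpb, at -1.98 (adjusted p 0.188), and Bhlhe40, at -1.66 (adjusted p 0.300), were higher in MSC without overlap. In all, 8 of the 22 did not overlap, against 24.5% of all genes.

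Of 18 tested odontoblast and osteoblast matrix genes, 2 were higher in MSC and 1 higher in TAC at an unadjusted p under 0.05, against 6.43% and 5.42% of all genes. The pyrophosphate exporter gene Ank measured 23.9, 20.02 and 20.2 across MSC against 45.3, 41.5 and 47.3 across TAC (log2 fold change 1.03, SE 0.26, adjusted p 0.179). Tnfrsf11b, the RANKL decoy receptor osteoprotegerin, at -2.02 (adjusted p 0.274), and the pyrophosphate-producing Enpp1, at -1.12 (adjusted p 0.396), were higher in MSC. Alkaline phosphatase, Alpl, was at 0.70 (adjusted p 0.516). The list median was 0.75 over all libraries, 0.095 in replicates 1 and 2 and 1.05 in replicate 3.

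Of 13 tested KLF genes other than Klf4, 3 were higher in MSC at an unadjusted p under 0.05 and none was higher in TAC, against 6.43% and 5.42% of all genes. Klf2, a factor of endothelium, measured 21.9, 21.9 and 34.9 across MSC against 4.36, 3.36 and 9.46 across TAC (log2 fold change -2.09, SE 0.46, adjusted p 0.141). Klf7 was at -1.34 (SE 0.29, adjusted p 0.139), Klf10 at -1.47 (adjusted p 0.322) and Klf3 at -0.58 (adjusted p 0.662), and the list median was -0.38, at -0.52 in replicates 1 and 2 and -0.63 in replicate 3. Of 6 tested SP genes other than Sp7, 1 was higher in TAC at an unadjusted p under 0.05, against 5.42% of all genes. That was Sp6 (epiprofin), a factor of dental epithelium and odontoblasts, at 52.4, 61.2 and 19.2 across MSC against 235, 222 and 257 across TAC (log2 fold change 2.55, SE 0.45, adjusted p 0.0836). Sp9, Sp4 and Sp1 were at 0.63, -0.92 and 0.16, with adjusted p-values from 0.562 to 0.904.

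**Figure D5:**
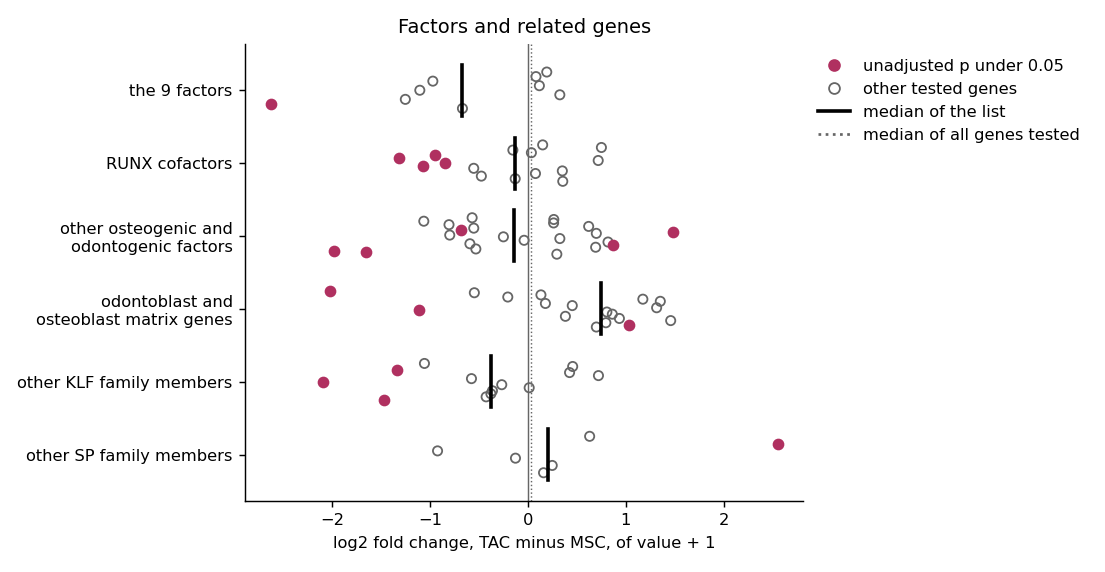
Log2 fold change, TAC minus MSC, of the normalized value plus 1 (x axis) for each tested gene (circles) of the 9 factors and 5 related lists, with the list median (black bars) and the median of all genes tested (dotted line, 0.026). Filled circles have an unadjusted p under 0.05, and none of the genes shown passed the adjusted threshold.

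Several of these factors are also expressed in cells other than dental mesenchyme, and fewer cells of a type and less RNA per cell cannot be told apart in captured tissue. The 10 dental mesenchyme markers summed to 1650 to 2139 in MSC and 1148 to 1662 in TAC, with overlapping groups. Of these 10, Pax9, Lhx8, Prrx1 and Vim were higher in MSC and Msx1 higher in TAC without overlap, against 12.2% and 12.3% of all genes, and 0 passed the adjusted threshold in limma while 3 had an unadjusted p under 0.05. The summed level of 10 smooth muscle and pericyte markers was 768 to 1600 in MSC and 102 to 106 in TAC, and 5 of 9 tested passed the adjusted threshold as higher in MSC, against 0.383% of all genes. The 10 endothelial markers summed to 312 to 357 in MSC and 125 to 134 in TAC. Both sums were lower in TAC, as were the means of Nfia, Nfib and Nfix. In MSC both sums were highest in replicate 3, where Nfia was also highest and Nfib and Nfix were lowest. In TAC replicate 3, where all 3 genes were lowest, the endothelial sum was the lowest of TAC and the smooth muscle and pericyte sum the highest. The 17 immune markers, 6 of them without a read in MSC replicate 3, summed to 92.1 to 246 in MSC and 42.4 to 113 in TAC. The 8 Schwann cell markers summed to 22.4 to 46.2 in MSC and 6.63 to 19.3 in TAC, with 1 to 3 of them without a read in 4 libraries. The 4 listed osteoclast markers of 7 summed to 30.5 to 68.3 in MSC and 17.3 to 24.1 in TAC. Of these, Mmp9 alone was higher in MSC without overlap, against 12.2% of all genes. It measured 16.7, 18.1 and 21.3 across MSC against 4.99, 4.32 and 1.05 across TAC, while Acp5, Ctsk and Atp6v0d2 overlapped between the groups.

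The 14 listed dental epithelium markers summed to 3697 and 3637 in MSC replicates 1 and 2, to 332 in MSC replicate 3, where 7 of them had no read beside 43.1% of all genes, and to 2438 to 3384 in TAC. Most of each sum came from the enamel genes Amelx, Ambn and Enam, of which Amelx alone measured 2503, 2492 and 80.6 across MSC against 2102, 2209 and 826 across TAC. All 13 tested epithelium markers had a positive log2 fold change, with a median of 1.05 that rested largely on replicate 3, since replicates 1 and 2 gave 0.58 and replicate 3 gave 2.67, and 10 of the 13 had the same sign in both sets. Of the 13, Krt14, Krt5, Krt17, Epcam and Cdh1 were higher in TAC without overlap, a property of 12.3% of all genes, while 0 passed the adjusted threshold in limma and 2 had an unadjusted p under 0.05. The 7 odontoblast markers were likewise lowest in MSC replicate 3, at 14722 and 14623 in MSC replicates 1 and 2, 2099 in MSC replicate 3, where 2 had no read, and 11354 to 15830 in TAC. MSC replicate 3 was thus low both in these markers and in Runx1, Runx2, Runx3, Nfib, Nfic and Nfix. In TAC replicate 3 the same factors were likewise at their lowest of TAC. There the odontoblast and epithelium sums, 11354 and 2438, were the lowest of TAC but far above those of MSC replicate 3. The 7 osteocyte and bone-lining markers were 240 to 333 in MSC, with 4 of them without a read in MSC replicate 3, and 266, 277 and 1700 in TAC replicates 1, 2 and 3. Most of each sum came from Bglap and Bglap2, at 1180 and 484 in TAC replicate 3. Both are also in the list of odontoblast and osteoblast matrix genes. The 10 dividing cell markers summed to 132 to 251 in MSC and 354 to 1204 in TAC. The part of these cell types in the values of the 9 factors was not tested.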

How the data were processed

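The authors trimmed single-end reads, aligned them to mm10 with TopHat 2.0.8 and normalized them, by the methods as RPKM. The submitters' processing notes also name CASAVA 1.8.2 and Partek, while how reads were counted, and whether by strand, is not given in the sources used here. The deposited signal was not on an RPKM scale, since genes of very different lengths had the same smallest value within a library. It was treated as a read number plus 1, scaled per library and not divided by gene length. Estimated reads are the value over that smallest value, minus 1. Of values up to 20 such steps, 63.2% to 74.3% per library were whole within 0.02, so no count model is reported.

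Values were taken as log2(value + 1) for 15391 genes (mean value 1 or more) and tested with limma 3.58.1 in R 4.3.3 (empirical Bayes with a variance trend), two-sided, with Benjamini-Hochberg adjustment over all genes tested. The design had assumed RPKM, and the same test suits the unit found. Alternatives used another pseudocount, filter, scaling or variance model, a replicate block, a library set term, or fewer samples. The factors, lists and tests were chosen with earlier results of these data known. The text names all 9 factors and, of each related list, up to 4 genes of lowest p, with Cbfb added after its values were seen. Fits were run on simulated data with known changes. Outside the changed genes those data held no split between replicate 3 and the other libraries, so they cannot show how the fits behave under that split. Replicate numbers in the labels were checked for pairing: deviations from group means correlated at 0.477, 0.465 and 0.517 between same-numbered samples, but the crossed pairs of numbers 1 and 2 gave 0.462 and 0.480, so the shared part was replicate 3 against the others.

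Gene coordinates are the table's, 1-based on mm10, with the end lowered by 1. Those of 8 of 9 factors were the same in GENCODE M21, which gave exon lengths, and Sp7 differed. Promoter windows are from RefSeq. Sp7 and Nfib had none there. Strand use being unknown, reads of antisense genes that share exon bases can be included.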

Additional observations from a re-analysis of the deposited data

Results flagged for a closer look

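The change between TAC and MSC differed between replicate 3 and replicates 1 and 2 for 7 of the 9 factors, by the test of that difference in limma (adjusted p under 0.05, a result 57.2% of all genes share). The error of that test is the spread between replicates 1 and 2 only. The log2 difference, replicate 3 minus replicates 1 and 2, was -3.33 for Klf4 (adjusted p 2.14e-05), -2.30 for Nfia (0.000190) and 1.65 for Runx2 (4.84e-05). For Klf4 and Runx2 the direction turned between the sets, while Nfia was lower in TAC in both and more so in replicate 3. The difference was -0.62 for Nfix, 0.60 for Runx3, -0.43 for Sp7 and 0.26 for Nfic, with adjusted p-values of 0.00101, 0.0124, 0.0251 and 0.0149. No cause of these differences was tested.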

How the results depend on the processing

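Of the 9 factors 0 passed the adjusted threshold in 14 of 17 alternatives. The count was 3 with library set as a batch term and 7 with replicates 1 and 2 only, and 0 to 1 when each sample was left out in turn. The 1 was Runx2, without MSC replicate 3. The replicate block left it at 0. The related lists had 18, 57 and 0 to 3 calls in those 3 cases and 0 in the others. Over all genes the count of 65 became 43 with a pseudocount of 0.5, 114 with quantile normalization, 29 without a variance trend, 229 with the replicate block, 1814 with the batch term, 6796 with replicates 1 and 2 only, 10 with replicates 1 and 2 averaged, and 0 to 280 with a sample left out (280 without MSC replicate 3, 20 without TAC replicate 3 and 0 without any one of the other 4). The number of factors whose change differed between library sets was 7 or 8 under the 2 other pseudocounts and median-ratio scaling. A planned voom fit on reads recovered from the values was run and then dropped after its result was seen, because too few values came out as whole reads for a count model. It called no factor, and its log2 fold change for Nfia was more negative than the range given for the other alternatives.

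The log2 fold changes of Nfia, Nfib and Nfix were negative in all 17 alternatives reported and in replicate 3 only. In replicates 1 and 2 only, 3 factors turned sign, Runx1 at -0.075, Runx3 at -0.12 and Klf4 at 0.44, and in replicate 3 only, Runx2 at 0.13 and Sp7 at -0.097. With a sample left out, Runx1 ran from -0.17 to 0.36, Runx2 from -1.57 to -0.64, Nfia from -2.99 to -1.98, Runx3 from -0.39 to 0.36, Sp7 from -0.028 to 0.54, Nfib from -1.93 to -0.33, Nfix from -1.55 to -0.45, Nfic from -0.11 to 0.68 and Klf4 from -1.23 to 0.38. MSC replicate 3 turned Runx1, Runx3 and Nfic, TAC replicate 3 turned Klf4, and MSC replicate 1 or TAC replicate 3 turned Sp7. TAC replicate 1 or TAC replicate 2 also turned Runx3. The cause was not tested. The lowest factor value came from 121 estimated reads.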

Other observations

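For each factor, the genes with the most similar pattern over the 6 libraries were found by Pearson correlation of log2(value + 1) among all genes tested other than predicted genes and clone names, as a description over 6 points that share the split between replicate 3 and the other libraries. All 18 correlations, 2 for each factor, lay between 0.989 and 0.9995. Nfia was closest to Mmp9, a matrix protease abundant in osteoclasts, and to the protocadherin gene Pcdhb13. Mmp9 measured 16.7, 18.1 and 21.3 across MSC against 4.99, 4.32 and 1.05 across TAC, a steep difference like that of Nfia. The other tested osteoclast markers, Acp5, Ctsk and Atp6v0d2, overlapped between the groups. Nfib was closest to Runx1t1, a corepressor gene named for its fusion with RUNX1 in leukemia, at 16.98, 17.9 and 3.43 across MSC against 8.74, 6.86 and 0.136 across TAC. Runx3 was closest to Zfp780b and to the homeobox gene Irx5, which measured 16.5, 19.9 and 2.78 across MSC against 16.8, 15.6 and 5.22 across TAC. Sp7 was closest to Cpe, which encodes carboxypeptidase E, and to Gins3, a DNA replication gene, both highest in replicate 3 of each group. Nfic was closest to the translation initiation factor gene Eif3a and to Pdcd11, Nfix to Apba1 and Cfap74, Klf4 to Nbr1 and Btbd7, and Runx1 to Rchy1 and Sptb. Runx2 was closest to Slc2a7 and Fam189a1, which were 4.34 to 6.90 in MSC replicates 1 and 2 and at most 0.36 in the other 4 libraries.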
